A study of Mus musculus with 2 samples.

Results

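The Sonic hedgehog pathway was described in the neural tube of mouse embryos through 9 genes: the ligand Shh, the receptor Ptch1, the co-receptor Boc, the decoy receptor Hhip, the membrane transducer Smo, the inhibitor Sufu and the transcription factors Gli1, Gli2 and Gli3. They were taken by symbol from 43346 annotated genes, and all 9 were found. Total RNA had been sequenced from B6NCrl embryos at 15.5 days in 2 libraries of 1 group, so no condition, genotype or treatment was compared. Replicate 1 was made from a pool of 78 embryos and replicate 2 from a separate pool of 62, with males and females mixed in each. The 2 libraries held 34678043 and 41355355 counts on annotated genes. Levels are given in TPM, which corrects for transcript length and library size, and pairs of values are always replicate 1 followed by replicate 2. The spread between the libraries is the only error available, and it comes from 2 pools.

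Hedgehog signalling runs through the primary cilium. Without ligand, Ptch1 holds Smo inactive, and Gli3 and Gli2 are kept in check by Sufu or trimmed into repressors. When Shh binds Ptch1, Smo is released and full-length Gli proteins enter the nucleus, where Gli1, Ptch1 and Hhip are among the genes they switch on. In the spinal cord, Shh comes from the notochord and then the floor plate. It patterns ventral progenitors, later favours oligodendrocyte precursors, and guides commissural axons through Boc.

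The libraries differed in marker genes of several other tissues. Markers of thymus summed to 253 and 0.35 TPM, those of epithelium to 714 and 11.6 TPM, of intestine to 88.6 and 5.03 TPM and of smooth muscle to 326 and 29.5 TPM. All 6 thymus, all 8 epithelial, all 5 intestinal and 4 of 5 smooth muscle genes were at least 2-fold higher in replicate 1 on the log2(TPM + 1) scale. By contrast, neuronal markers summed to 2440 and 2909 TPM and progenitor and radial glia markers to 1996 and 2378 TPM. Differences between the libraries are therefore given beside these lists, and the part of the extra tissues in them was not tested. In such bulk RNA, fewer cells of a type and less RNA per cell cannot be told apart.

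All 9 genes were expressed at low to moderate levels. Each reached 1 TPM in both libraries, as did 35.8% of all annotated and 63.4% of protein-coding genes. Their mean levels ran from the 37.6th percentile of protein-coding genes for Shh to the 64.8th for Sufu. None reached the median of protein-coding genes with a mean of at least 1 TPM, which was 18.6 and 17.4 TPM in the 2 libraries. The genes fell into 2 tiers: 5 genes of reception and transduction lay between 5.67 and 17.4 TPM in every library, and Shh with the 3 Gli genes lay between 1.25 and 3.62 TPM.

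**Figure D1:**
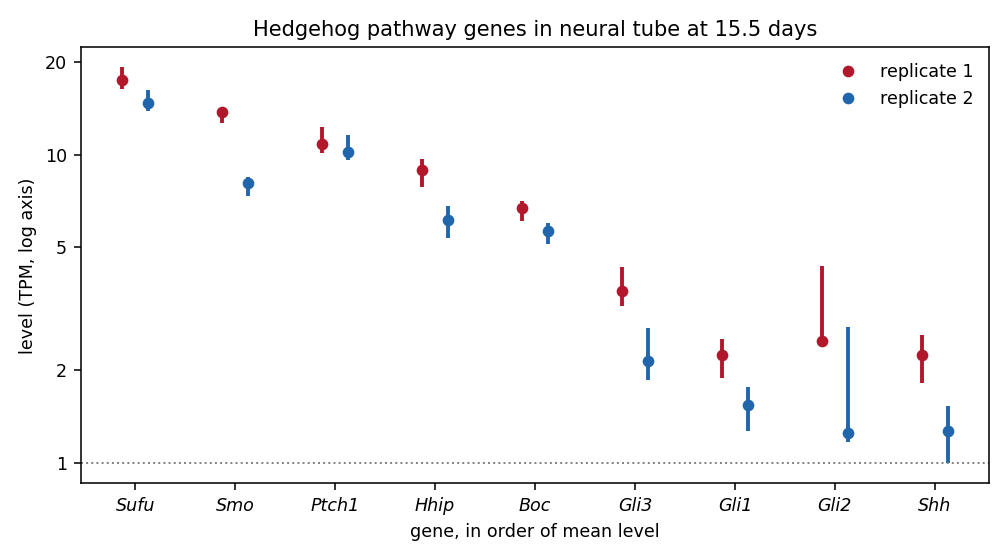
Level of each gene in TPM on a log axis, with 1 point per library and the deposited interval of the estimate as a vertical line. Replicate 1 lies above replicate 2 for all 9 genes, the lines of Gli2 reach far above its points, and the dotted line marks 1 TPM.

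Shh was the lowest of the 9 genes on average. Shh (ENSMUSG00000002633.3; mm10, chromosome 5, 28456815 to 28467256, minus strand), the secreted ligand, stood at 2.24 and 1.27 TPM, or 1.76 ± 0.69 (SD, n = 2), from 129 and 87.1 counts. The deposited interval ran from 1.82 to 2.59 TPM in replicate 1 and from 0.998 to 1.53 TPM in replicate 2, so the libraries did not overlap. What confidence level these intervals have is not stated in the labels or files, and they cover error of quantification, not that between pools. At this depth, 3 counts of Shh correspond to 0.0521 and 0.0437 TPM.

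Dhh was the highest of the 3 hedgehog ligands in both libraries. Dhh, the ligand made by Schwann cells, stood at 3.40 and 2.65 TPM and exceeded Shh in both libraries. The ratio of Shh to Dhh was 0.57 ± 0.13 (n = 2). Ihh, the ligand of growing cartilage and of intestinal epithelium, stood at 2.46 and 0.70 TPM and was above Shh in replicate 1 and below it in replicate 2. In replicate 1 the deposited interval of Ihh (2.02 to 2.92 TPM) overlapped those of Dhh (2.84 to 3.84 TPM) and of Shh, so its place was not resolved there. Ihh was also the only ligand past a 2-fold difference between the libraries, at 1.03 on the log2(TPM + 1) scale. Cartilage markers went the opposite way, with a sum of 74.2 and 117 TPM, and Schwann cell markers summed to 33.5 and 31.6 TPM. Intestinal markers (88.6 and 5.03 TPM) and epithelial markers (714 and 11.6 TPM) had the direction of Ihh. The part of any tissue in the Ihh difference was not tested.

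Defining genes of the classical sources of Shh were low or at 0. Foxa2, a transcription factor of the floor plate, stood at 1.83 and 1.03 TPM, and the floor plate regulator Ferd3l stayed below 1 TPM in both libraries, at 0.63 and 0.53 TPM. Spon1 and Ntn1, secreted floor plate proteins that other cells also make, were abundant at 57.4 and 62.7 TPM and at 23.7 and 20.97 TPM. Of the notochord genes, T stood at 0.25 and 0.28 TPM and Noto was at 0 in both libraries, while Chrd stood at 4.72 and 5.30 TPM. Foxa2 thus had the same direction between the libraries as Shh, and Ferd3l, Spon1 and Ntn1 differed by at most 0.17 on the log2(TPM + 1) scale. All 5 genes of ligand release were detected, and 4 were slightly higher in replicate 2. The acyltransferase Hhat stood at 4.24 and 3.71 TPM and the exporter Disp1 at 7.38 and 7.66 TPM. The secreted Scube1, Scube2 and Scube3, whose family helps to free the lipid-bearing ligand, stood at 5.06 and 5.17, at 2.59 and 2.90 and at 2.86 and 3.89 TPM.

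Ptch1 was the steadiest of the 9 genes between the libraries. Ptch1 (ENSMUSG00000021466.7; chromosome 13, 63508328 to 63573598, minus strand), the receptor and itself a target of the pathway, stood at 10.8 and 10.2 TPM, or 10.5 ± 0.45 (SD, n = 2), from 1539 and 1662 counts. Its deposited intervals, 10.1 to 12.2 and 9.60 to 11.5 TPM, overlapped. Ptch1 exceeded Shh by 6.42 ± 2.26-fold (n = 2).

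Most Ptch1 RNA was assigned to a transcript with a late start codon. The tables list 8 Ptch1 transcripts, of which 6 were above 0 in either library, and Ptch1-202 took 72.5% and 71.6% of the TPM. Its start lies 9063 bases downstream of the most upstream one, that of Ptch1-205, and its annotated reading frame of 3891 bases lacks the first 411 bases (137 codons) of the 4302-base frame of Ptch1-201. Ptch1-201, which encodes the full-length form and starts 7863 bases downstream of Ptch1-205, took 4.99% and 1.80%, with overlapping intervals of 0.188 to 0.982 and 0.0379 to 0.403 TPM. The first 60 coding bases of these 3 transcripts, from GENCODE release M21 on GRCm38, show how the annotated coding sequence opens in each, with the start codon in capitals.
Ptch1-205 (chr13:63573394-63573453, minus strand): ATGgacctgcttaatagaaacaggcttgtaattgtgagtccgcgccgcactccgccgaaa
Ptch1-201 (chr13:63565461-63565520, minus strand): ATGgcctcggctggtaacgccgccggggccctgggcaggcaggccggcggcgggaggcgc
Ptch1-202 (chr13:63548067-63548126, minus strand): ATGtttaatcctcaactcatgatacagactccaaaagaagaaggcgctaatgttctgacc
The stretch of Ptch1-202 is an internal stretch of Ptch1-201 that begins in frame at coding base 412. The first exon has 374 bases and 76.2% G or C in Ptch1-201, and 78 bases and 50% G or C in Ptch1-202. The part of base composition in the split was not tested.

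Reads were assigned to Ptch1 transcripts annotated from the upstream starts in both libraries. The assignment is to whole transcripts, and reads over the first exons alone were not examined. Ptch1-204 and Ptch1-205, which begin 138 bases apart, together held 15.6% and 22.1% of Ptch1 TPM, or 18.8 ± 4.60% (SD, n = 2), from 229 and 270 counts. Within this pair, Ptch1-204, annotated as a target of nonsense-mediated decay, stood at 1.32 and 1.21 TPM with overlapping intervals. Ptch1-205 stood at 0.37 and 1.04 TPM, from 8.34 and 28.2 counts, and its intervals of 0.0975 to 0.772 and 0.528 to 1.58 TPM overlapped too. Ptch1-205 is annotated as 1123 bases long against 7657 for Ptch1-204. As a share of Ptch1 counts it held 0.54% and 1.70%, against 14.4% and 14.6% for Ptch1-204.

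**Figure D2:**
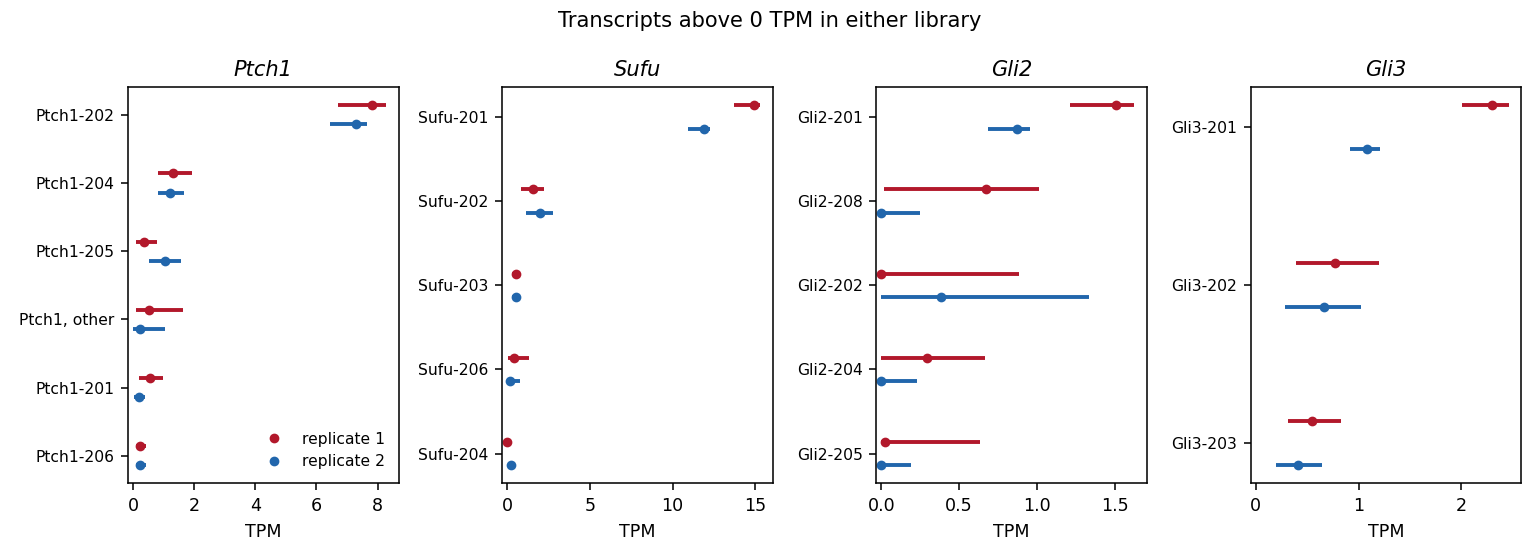
Level of each transcript above 0 TPM in either library for Ptch1, Sufu, Gli2 and Gli3, with 1 point per library and the deposited interval as a horizontal line; "Ptch1, other" is a transcript absent from release M21. 1 transcript leads each gene, and the short Gli2 transcripts have intervals that reach down to almost 0.

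Boc and Hhip, the other binding proteins among the 9 genes, stood below Ptch1 in both libraries. Boc (ENSMUSG00000022687.7; chromosome 16, 44485049 to 44558897, minus strand), a cell-surface co-receptor that presents Shh to Ptch1, stood at 6.72 and 5.67 TPM, or 6.20 ± 0.74 (SD, n = 2). It exceeded its relative Cdon (2.64 and 2.97 TPM) by 2.23 ± 0.45-fold. Gas1, a lipid-anchored co-receptor, stood higher still at 22.0 and 13.3 TPM, with a Boc to Gas1 ratio of 0.365 ± 0.085 (n = 2). Of the 3 co-receptors, Gas1 was thus the highest in both libraries, and its level differed most between them. Lrp2, an endocytic receptor of Shh in the forebrain, stayed below 1 TPM at 0.54 and 0.37.

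Hhip (ENSMUSG00000064325.3; chromosome 8, 79965851 to 80058006, minus strand), a membrane protein that traps the ligand and is induced by it, stood at 8.88 and 6.16 TPM, or 7.52 ± 1.92 (SD, n = 2). Its deposited intervals, 7.88 to 9.68 and 5.38 to 6.81 TPM, did not overlap. The Hhip to Ptch1 ratio was 0.82 in replicate 1 and 0.61 in replicate 2. The protein-coding Hhip-201 held 79.4% and 76.4% of Hhip TPM, and the rest belonged to the short processed transcript Hhip-202. Hhip-202, counted as 909 bases long against 4582 for Hhip-201, rested on 32.8 and 31.2 counts. As a share of counts Hhip-201 held 95.5% and 94.7%. Hhip overlaps 175 exonic bases of Gm27820 on the other strand (4.39 and 3.29 TPM). Whether reads were counted by strand is not stated in the labels or files.

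Smo differed most between the libraries among the 9 genes on the log2(TPM + 1) scale, by 0.70. On CPM scaled by TMM its 0.71 lay below Gli3 (0.84) and Gli2 (0.72). Without the added 1 TPM, its TPM ratio of 1.70 lay below those of Gli2 (1.99) and Shh (1.76). Smo (ENSMUSG00000001761.6; chromosome 6, 29735503 to 29761365, plus strand), the seven-pass protein that carries the signal across the membrane, stood at 13.7 and 8.07 TPM, or 10.9 ± 4.01 (SD, n = 2), from 1122 and 786 counts. The deposited intervals, 12.6 to 14.2 and 7.34 to 8.45 TPM, did not overlap. Smo has a single transcript in the tables, so no split of reads between isoforms enters this value. The order of Ptch1 and Smo changed between the libraries, with a Ptch1 to Smo ratio of 0.79 in replicate 1 and of 1.26 in replicate 2.

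Sufu was the highest of the 9 genes in both libraries. Sufu (ENSMUSG00000025231.12; chromosome 19, 46396896 to 46488804, plus strand), which binds Gli proteins and holds them out of the nucleus, stood at 17.4 and 14.7 TPM, or 16.0 ± 1.87 (SD, n = 2). It exceeded Smo by 1.26-fold and 1.82-fold and Gli3, the most abundant Gli gene, by 4.80-fold and 6.85-fold. Its ratio to Kif7, the ciliary kinesin that also restrains Gli proteins and stood at 1.58 and 1.29 TPM, was 11.2 ± 0.295 (n = 2), the least variable on the log2 scale of the 15 ratios computed.

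The 2 leading spliced forms of Sufu differ by 1 codon. Of 6 Sufu transcripts, 5 were above 0 in either library, among them the protein-coding Sufu-203 at 0.51 and 0.50 TPM. Sufu-201 held 85.8% and 80.8% of Sufu TPM, and Sufu-202 held 8.81% and 13.4%. The acceptor site of exon 7 lies 3 bases further upstream in Sufu-202, which makes its reading frame 1455 bases long against 1452. The sequences across the junction of exons 6 and 7 (18 bases of exon 6, chr19:46450946-46450963, and then exon 7, plus strand, release M21 on GRCm38) show the added bases in capitals.
Sufu-201 (exon 7 from chr19:46453162-46453185): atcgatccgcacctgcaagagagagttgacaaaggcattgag
Sufu-202 (exon 7 from chr19:46453159-46453185): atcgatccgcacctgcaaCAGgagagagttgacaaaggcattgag
The deposited intervals of Sufu-202, 0.801 to 2.21 and 1.15 to 2.75 TPM, overlapped between the libraries. Sufu-202 is annotated as 1747 bases long against 4522 for Sufu-201, so the split rests on this length as well as on the junction, and as a share of counts Sufu-202 held 4.62% on average.

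The 3 Gli genes were all low, and Gli3 had the highest TPM of them in both libraries. Gli3 (ENSMUSG00000021318.11; chromosome 13, 15463235 to 15730026, plus strand), the main source of Gli repressor, stood at 3.62 and 2.15 TPM, or 2.89 ± 1.04 (SD, n = 2), from 479 and 295 counts. Gli1 (ENSMUSG00000025407.6; chromosome 10, 127329882 to 127341974, minus strand), an activator whose own expression depends on the pathway, stood at 2.25 and 1.54 TPM, or 1.90 ± 0.50. Gli2 (ENSMUSG00000048402.10; chromosome 1, 118834132 to 119053619, minus strand), the main activator, stood at 2.49 and 1.25 TPM, or 1.87 ± 0.88. Gli3 exceeded Gli1 by 1.61-fold and 1.40-fold, with deposited intervals apart in both libraries. Its intervals overlapped those of Gli2 in both, and the log2 ratio of Gli3 to Gli2 was 0.66 on TPM and 0.20 on posterior mean TPM. Gli2 was above Gli1 in replicate 1 and below it in replicate 2, with overlapping intervals, so the order of these 2 was not resolved. Between neighbours in the order of mean level, Smo and Ptch1, Gli1 and Gli2, and Gli2 and Shh changed places between the libraries, and Hhip and Boc as well as Gli3 and Gli1 overlapped in their ranges without changing places.

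The low levels of Gli2 and Gli3 rested partly on short annotated fragments. The full-length Gli2-201 stood at 1.51 and 0.87 TPM, below 1 TPM in replicate 2. It held 95.2% of Gli2 counts on average but 60.6% and 69.5% of TPM. In replicate 1, Gli2-208 (862 bases) added 0.67 TPM from 11.4 counts, and in replicate 2 Gli2-202 (367 bases) added 0.38 TPM from 2.70 counts. Neither was above 0 in the other library. The full-length Gli3-201 stood at 2.30 and 1.08 TPM, or 63.5% and 50.3% of Gli3 TPM, and the shorter Gli3-202 and Gli3-203 made up the rest. Counted by the leading transcript of each gene alone, an alternative added after the data were seen, the log2 ratio of Gli3 to Gli1 turned from 0.58 to -0.24 and 8 of the 9 genes reached 1 TPM, with Gli2 below. Gli1 and Shh, with 1 transcript each in the tables, do not depend on this choice.

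All 9 genes had higher levels in replicate 1, although none by 2-fold, Gli2 coming closest with a TPM ratio of 1.99. The log2(TPM + 1) ratio of replicate 1 to replicate 2 was 0.70 for Smo, 0.63 for Gli2, 0.55 for Gli3, 0.51 for Shh, 0.46 for Hhip, 0.36 for Gli1, 0.22 for Sufu, 0.21 for Boc and 0.08 for Ptch1. Their median was 0.46, against 0.02 over the 16524 genes with a mean of at least 1 TPM. Replicate 1 was the higher library for 53.2% of those genes, and for 58.1% of the 7096 genes within the mean levels of these 9. A 2-fold difference towards replicate 1 was reached by 5.63% of the 16524 genes and one towards replicate 2 by 0.635%. The deposited intervals lay apart with replicate 1 higher in 7 of the 9 genes, all but Ptch1 and Gli2, against 22.2% of the 16524 and 24.3% of the 7096. With 1 library on each side there is no test of these differences, and markers of endothelium (4 of 4 genes, median 0.31) and of mesenchyme and meninges (5 of 6, median 0.25) had the same direction. The part in them of these cells, or of the thymus, intestinal, epithelial and smooth muscle RNA of replicate 1, was not tested.

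In GENCODE release M21, 5 measured genes overlap exons of the 9 on the other strand, and 4 of them were higher in replicate 1. They were chosen after their values were seen. Arhgap9 shares 62 exonic bases with Gli1 and stood at 10.3 and 0.71 TPM. Gm26894 and 9530036O11Rik share 361 and 446 exonic bases with Shh and stood at 1.21 and 0.51 and at 0.15 and 0.05 TPM. Gm27820 beside Hhip had this direction too, and Gm6556, which shares 188 exonic bases with Gli3, stood at 0.12 and 0.16 TPM. The models of Gli1 (4057 bases) and Hhip (9074 bases) are longer in release M21 than as deposited (3665 and 4582 bases). A stretch shared with Gli1 or Hhip may thus lie outside what was counted. The Shh model differs less, with 2847 bases in release M21 and 2692 as deposited. That gain is smaller than either stretch shared with Shh, so it does not by itself place them outside what was counted. The counts of Gli1 were whole numbers in both libraries (178 and 145), and those of Shh were not. This does not show whether reads of a neighbour were counted. Whether any reads of these neighbours entered the values of Gli1 and Shh was not tested.

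**Figure D3:**
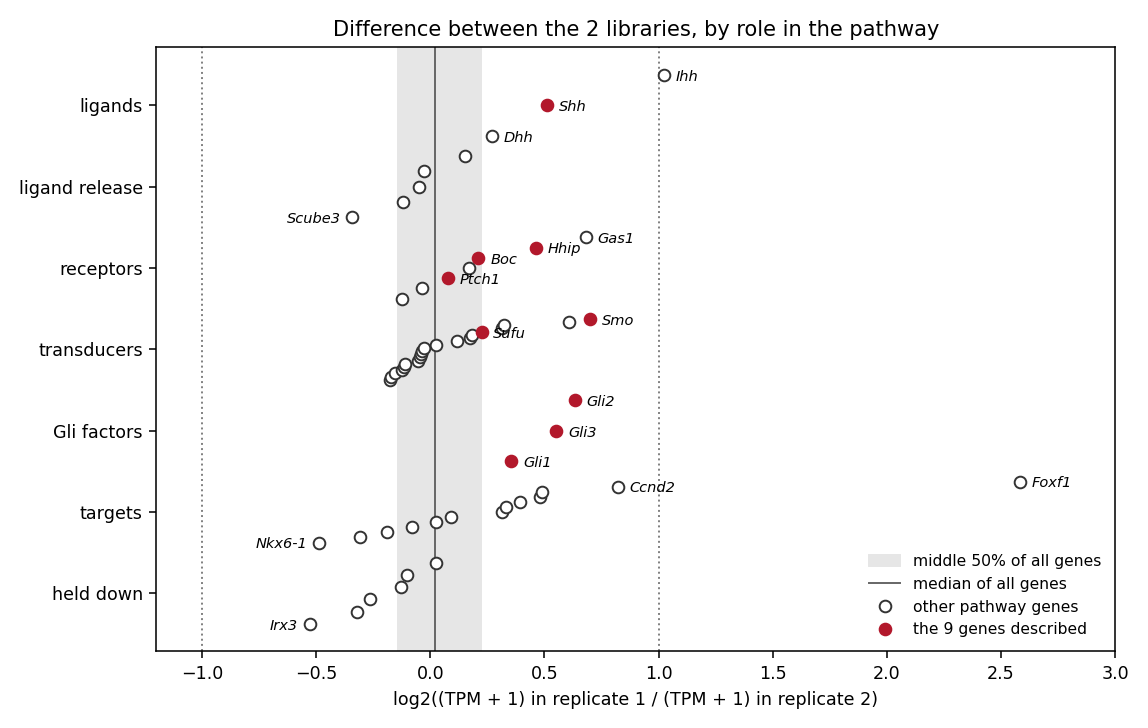
Difference between the libraries for all pathway genes, as the log2 ratio of TPM + 1 in replicate 1 over replicate 2, by role; filled points are the 9 genes, dotted lines mark 2-fold, and the grey band and line are the middle 50% and the median of 16524 genes. The filled points all lie right of the line, the genes of ligand release and transduction cluster around it, and Foxf1 lies at 2.58.

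The rest of the pathway had no common direction between the libraries. Of 48 other pathway genes, 43 were detected, beside 63.4% of protein-coding genes. Of the 48, 22 were higher in replicate 1 and 26 in replicate 2, beside 53.2% of the 16524 genes higher in replicate 1. The median log2 ratio of the 48 was -0.03, beside 0.02 over the 16524 genes. Dhh and Ihh were both higher in replicate 1 (median 0.65), as were most targets. The 4 other receptors and co-receptors were split, with 2 higher in each library. Higher in replicate 2 were 11 of the 18 other transducers and 4 of 5 genes of ligand release. The same held for 5 of 6 genes held down by hedgehog. The medians of the 18 transducers (-0.04) and of ligand release (-0.05) lay near that of the 16524 genes. Only Ihh and Foxf1 passed 2-fold on the log2(TPM + 1) scale, both towards replicate 1. All 18 other transducers and regulators were detected, with a median of 21.4 and 21.6 TPM. The highest were Prkar1a and Prkaca, subunits of the protein kinase A that marks Gli proteins for trimming, at 376 and 370 TPM and at 191 and 208 TPM, and the kinase Csnk1a1, at 209 and 213 TPM. The lowest were Kif7, Gpr161 (1.92 and 2.15 TPM), a ciliary receptor that dampens the pathway, and Evc (4.76 and 3.60 TPM), a ciliary partner of Smo. These broadly used kinases thus stood far above Smo and Sufu.

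Most target genes were higher in replicate 1. Of 13 listed targets, 11 were detected. Of the 13, 9 were higher in replicate 1 and 4 in replicate 2, beside 53.2% of the 16524 genes higher in replicate 1. The 9 include Nkx2-9 and Foxl1, which were not detected. The median log2 ratio of the 13 targets was 0.31, beside 0.02 over the 16524 genes. The highest were Ccnd2 at 50.6 and 28.2 TPM and Ccnd1 at 22.0 and 15.4 TPM, cyclins that drive entry into the cell cycle, and Mycn at 33.5 and 35.5 TPM. The lowest were Nkx2-9 at 0.12 and 0.10 TPM, Foxl1 at 0.42 and 0.13 TPM and Foxa2. The following targets were picked after their values were seen. Foxf1, a target in the mesenchyme around the gut, stood at 12.9 and 1.32 TPM, a log2 difference of 2.58, the largest of all pathway genes. Targets of the ventral spinal cord went both ways: Nkx6-1 stood at 4.37 and 6.53 TPM, Nkx6-2 at 4.96 and 6.38 TPM, Olig2, a factor of motor neuron and oligodendrocyte progenitors, at 7.23 and 8.38 TPM and Nkx2-2 at 4.39 and 4.06 TPM. The 4 targets that were higher in replicate 2 were Nkx6-1, Nkx6-2, Olig2 and Mycn. Of the others, Foxf2 (0.39), Bcl2 (0.31) and Foxa2 (0.48) had log2 ratios near those of the 9 genes, and Nkx2-2 (0.09) differed least apart from Nkx2-9. Foxl1 had a log2 ratio of 0.33, but it lay below 1 TPM, where the added 1 TPM shrinks the ratio. Its plain TPM ratio was 3.23, from 24 and 9 counts. Smooth muscle and intestinal markers had the direction of Foxf1, and their part in its difference was not tested.

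Genes that hedgehog holds down in the early neural tube were detected in 5 of 6 cases and leaned towards replicate 2. Pax6 stood at 7.62 and 9.36 TPM, Irx3 at 3.48 and 5.46 TPM, Dbx2 at 4.26 and 4.75 TPM, Pax3 at 2.01 and 2.76 TPM and Dbx1 at 1.15 and 1.31 TPM. Pax7 stayed at 0.14 and 0.12 TPM. None differed by 2-fold, and their median log2 ratio was -0.20, beside medians of -0.22 for 4 neuronal and -0.13 for 6 progenitor markers.

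**Figure D4:**
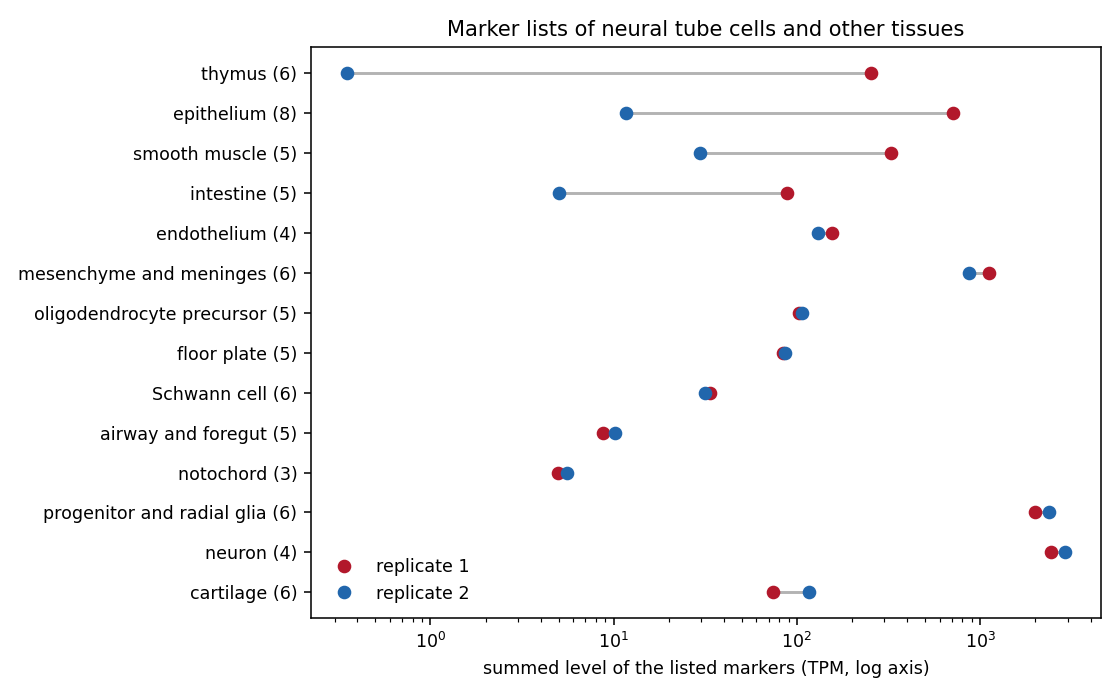
Summed TPM of each marker list in the 2 libraries on a log axis, with the number of genes in brackets. Thymus, epithelium, smooth muscle and intestine lie far to the right in replicate 1, while neuronal, progenitor and cartilage markers are somewhat higher in replicate 2.

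Marker lists of the remaining tissues differed by less than 2-fold between the libraries, and those of endothelium and mesenchyme leaned towards replicate 1. Oligodendrocyte precursor markers summed to 103 and 107 TPM, from Olig1 at 63.6 and 71.1 TPM down to Cspg4 at 6.50 and 5.47 TPM. Endothelial markers summed to 155 and 129.5 TPM, led by Cldn5 at 99.4 and 91.1 TPM with Cdh5 lowest at 14.4 and 10.3 TPM, and all 4 were higher in replicate 1 (median log2 ratio 0.31). Mesenchymal and meningeal markers summed to 1121 and 870.3 TPM, led by Col3a1 at 432 and 288 TPM with Foxc1 lowest at 1.20 and 1.36 TPM, and 5 of 6 were higher in replicate 1 (median 0.25). Pecam1 (22.7 and 11.8 TPM, log2 ratio 0.89) and Lum (48.5 and 27.0 TPM, 0.82), chosen after their values were seen, differed by more than any of the 9 genes. None of the genes of these 3 lists differed by 2-fold. Of the airway and foregut list, Nkx2-1, Foxe1 and Scgb1a1 were at 0 in both libraries, and only Sox2, which neural progenitors share, reached 1 TPM at 8.35 and 9.98.

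In the lists that stood apart, every gene past 2-fold was higher in replicate 1 except in cartilage. Thymus genes ran from Prss16 at 136 and 0.07 TPM to Rag1 at 9.52 and 0.03 TPM, with Foxn1, Psmb11, Ptcra and Cd3e between them in mean level. Epithelial genes ran from Krt8 at 266 and 1.97 TPM to Cldn6 at 6.66 and 0.08 TPM, and Krt18, Epcam, Cldn7, Krt19, Cdh1 and Cldn4 differed as well. Intestinal genes ran from Lgals4 at 70.3 and 4.47 TPM to Fabp2 at 2.39 and 0.04 TPM, with Cdx2 (2.59 TPM) at 0 in replicate 2, and with Vil1 and Cdh17. These 3 lists held no gene that was higher in replicate 2. Smooth muscle genes past 2-fold were Acta2 at 175 and 17.9 TPM, Actg2, Cnn1 and Myh11, and the lowest of that list by mean was Myh11 at 14.9 and 0.31 TPM. Cartilage genes past 2-fold were Matn1 at 2.49 and 8.87 TPM and Col10a1 at 1.37 and 4.91 TPM, in a list led by Col2a1 (27.7 and 51.7 TPM) with Acan lowest. Schwann cell genes ran from Gfra3 at 10.1 and 10.6 TPM to Cdh19 at 0.70 and 0.88 TPM. Neuronal genes ran from Tubb3 at 1060 and 1275 TPM to Elavl4 at 246 and 277 TPM, and progenitor genes from Fabp7 at 1417 and 1833 TPM to Pax6.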

How the data were processed

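The authors deposited 1 gene and 1 transcript table per library on mm10, per the labels, with GENCODE release M4, per a note the authors deposited for each library. Which aligner and quantifier were used, and whether strand was, is not stated in the labels or files. Per the file headers, the deposited tables hold expected counts, TPM and FPKM (maximum likelihood and posterior mean), bounds of the TPM intervals, and each transcript's percent of gene TPM. The 26248 entries named by a number alone, the 96 spike-ins and the 1 phage control do not enter gene counts but remain in the TPM total. Symbols and coordinates came from release M21 (GRCm38, the same assembly as mm10), matched for 42462 genes by identifier without version. The members and lists were chosen with earlier results of these data known.

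A gene counted as detected if both libraries reached 1 TPM, and as apart at an absolute log2((TPM + 1) ratio) of 1 or more. No test was run. Scaling alternatives used rounded counts with edgeR 4.0.16 (TMM) and DESeq2 1.42.0 (size factors). Named genes followed a rule by list: all ligand, release, receptor, Gli and held-down genes, the 3 highest and lowest transducers and targets, and for markers the highest, the lowest and those past 2-fold. Some genes that this rule or the lists hold are not reported here by name.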

Additional observations from a re-analysis of the deposited data

How the results depend on the processing

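At a threshold of 5 TPM, 5 of the 9 genes and 24 of 48 other pathway genes were detected, in place of 9 and 43. On FPKM, 6 of the 9 reached 1. The share of all genes past these cut-offs was not computed, so these counts cannot be set against genes in general. All 9 were detected at 0.5 TPM, on posterior mean TPM, on TPM rescaled to annotated genes and in either library alone. No gene of the 9 passed 2-fold with a pseudocount of 0.1 TPM, on CPM scaled by TMM, on counts divided by DESeq2 size factors or on posterior means, and all 9 were higher in replicate 1 on TMM CPM too. Leaving out a library cannot be done for a difference between 2. The log2 ratio of Gli3 to Gli1 reversed from 0.58 to -0.24 by the leading transcript of each gene, because the shorter Gli3 transcripts drop out. From CPM, which is not per length, 12 of 15 pair ratios moved by more than the SD over the libraries, for example Ptch1 to Smo from -0.01 to 0.77. One transcript held over 50% of the TPM in both libraries in all 9 genes, and in 7 by posterior means, where Gli2-201 fell to 42.2% on average. No paired analysis was possible because the libraries form 1 group. Depth limits Shh, Gli1 and Gli2 most, with 87.1, 145 and 153 counts in replicate 2.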

Other observations

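The promoter windows of 6 of the 9 genes (Gli2, Gli3, Hhip, Ptch1, Smo and Sufu), 300 bases each around the RefSeq start on GRCm38.p6, held between 12 CpG sites (Sufu) and 47 (Ptch1), against a median of 7 over 32851 windows. The share of all windows with fewer sites was 60.4% for Sufu, 68.6% for Smo, 85.8% for Gli2, 88.3% for Hhip, 95.6% for Gli3 and 98.6% for Ptch1. The Ptch1 window (chromosome 13, 63565686 to 63565985) lies at the start of Ptch1-201, the form that took 4.99% and 1.80% of Ptch1 TPM. The Gli binding motif GACCACCCA, searched on both strands, was in none of the 6 windows and in 0.253% of all windows. The GC box GGGCGG was in 5 of the 6, all but Smo, and in 35.7% of all windows, and CCAAT was in that of Sufu alone and in 37.4% of all. None of these 3 motifs contains another. These are matches of letters in short windows and say nothing of factor binding.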
